A study of Arabidopsis thaliana with 8 samples.

Results

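Accessible chromatin regions (ACRs) of germinating Arabidopsis thaliana seeds were compared with those of both ends of the seed-to-seedling course, the dry seed before it and the green seedling after it. The 4 germinating-seed libraries were set against the 4 end libraries over all 30223 ACRs that the study's merged peak set holds, so the comparison is a contrast of samples over every region and not a selection of regions. All 8 libraries came from the wild-type accession Col-0. L6 and L26 were germinating seeds after 6 and 26 h of light, with 2 libraries each. DS was dry seed and L57 was seedling after 57 h of light, also with 2 libraries each. The light stages followed stratification of the seeds in water, in the cold and dark, and were grown in shaken liquid medium under continuous light. For germinating seeds, embryos were squeezed out between microscope slides, and a sucrose step removed the seed coats. How DS and L57 material was handled is not given in the sources used here, so a difference in the tissue collected and a difference in chromatin cannot be told apart, and in bulk nuclei neither can fewer cells of a type and less accessibility per cell. The labels do not say that replicates came from separate cultures, so the p-values measure only the spread between these libraries.

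ATAC-seq reads out where the transposase Tn5 can insert into chromatin, and its reads gather at promoters and other regulatory elements that nucleosomes leave free. Germination starts with the uptake of water, before the light stages sampled here. Gibberellin promotes and abscisic acid (ABA) opposes the exit from the embryonic programme. The embryo then lives on stored oil and protein until its cotyledons are green, while the regulators of seed maturation are shut down.

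The libraries held 3142490 and 3302541 counts at L6 and 2089834 and 2531844 at L26, against 3697787 and 3734831 in DS and 1534759 and 1853894 in L57, so that L57 was the shallowest stage. Values are given as CPM, which scale each count to the reads that the library has in ACRs, with the study's own trended normalisation. The libraries of one stage had Pearson r between 0.914 and 0.960 across ACRs. The second principal component of log CPM, with 30.5% of the variance, placed the germinating libraries between -49.3 and -20.5 and the end libraries between 26.9 and 50.7. Markers fixed for other tissues were followed as summed promoter CPM. The 4 of 16 seed coat markers with a promoter ACR summed to 99.5 and 94.0 CPM at L6 and 151 and 156 at L26, against 74.4 and 82.8 in DS and 106 and 129 in L57. Those 4 include TTG2 and GL2, which also act in the epidermis of embryo and seedling, and defining seed coat genes such as BAN, TT10 and TT12 had no promoter ACR. None of the 11 endosperm markers had one. Embryo storage markers (6 of 11) summed to 307-381 CPM in germinating seeds, against 806-852 in DS and 341-354 in L57, and the 5 green-tissue markers to 333-449 CPM, against 292-299 in DS and 535 in both L57 libraries. The part of tissue makeup in the results was not tested.

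Reference sequence is shown for 5 of the ACRs named below by the size of their difference. Each is 201 bases around the summit on the plus strand of TAIR10 (RefSeq copy), in a window that overlaps no annotated UTR. The ABI4 window holds the annotated start, 94 bp from the summit, and so the first bases of the annotated gene. Capitals mark matches, on either strand, to any of 15 plant promoter elements sought. The first pair are promoters that were more open in germinating seeds, ABI4 at chr2:16797579-16797779 with 2 GAGAGAGA repeats and a TATTTATA (the reverse complement of TATAAATA), and GRF5 at chr3:4607809-4608009 with a TGGGCC Site II element. The next is the largest difference outside promoters, upstream of PROT1 at chr2:16654465-16654665, with an RY element (CATGCA or TGCATG). The last pair were less open, the promoter of the storage albumin gene SESA5 at chr5:22239208-22239408, with RY elements, a CACGTG G-box and a W-box (TTGACC or TTGACT), and the region upstream of YLS5 at chr2:16235775-16235975, with Site II, RY and G-box elements. A match describes these letters and is no evidence that a factor is bound.
ABI4: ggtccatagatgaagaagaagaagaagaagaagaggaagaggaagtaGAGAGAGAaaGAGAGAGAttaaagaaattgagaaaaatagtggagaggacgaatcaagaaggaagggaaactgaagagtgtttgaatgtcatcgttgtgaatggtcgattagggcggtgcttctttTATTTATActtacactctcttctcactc
GRF5: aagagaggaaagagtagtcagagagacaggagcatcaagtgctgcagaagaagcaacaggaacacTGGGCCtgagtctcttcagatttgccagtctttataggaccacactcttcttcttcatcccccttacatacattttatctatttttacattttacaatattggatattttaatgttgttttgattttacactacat
PROT1: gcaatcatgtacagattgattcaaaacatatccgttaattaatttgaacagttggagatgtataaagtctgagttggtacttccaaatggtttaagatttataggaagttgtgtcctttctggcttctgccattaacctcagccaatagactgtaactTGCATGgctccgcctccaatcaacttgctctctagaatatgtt
SESA5: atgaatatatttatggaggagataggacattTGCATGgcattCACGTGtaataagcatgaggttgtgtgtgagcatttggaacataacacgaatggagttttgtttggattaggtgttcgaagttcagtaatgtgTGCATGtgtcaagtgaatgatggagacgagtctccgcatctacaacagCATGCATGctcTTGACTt
YLS5: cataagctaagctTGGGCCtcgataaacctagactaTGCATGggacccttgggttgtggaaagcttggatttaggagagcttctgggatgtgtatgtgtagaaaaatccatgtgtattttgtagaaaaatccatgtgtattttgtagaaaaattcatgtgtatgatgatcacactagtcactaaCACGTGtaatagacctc

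Germinating seeds differed from the mean of the ends at many ACRs, and far fewer lay beyond both ends. In the contrast of L6 and L26 with DS and L57, 5520 ACRs were higher in germinating seeds and 4850 lower, which is 18.3% and 16.0% of those tested (edgeR quasi-likelihood test, Benjamini-Hochberg adjusted p below 0.05). Their median log2 fold changes were 0.64 and -0.58, and a difference of at least 2-fold was reached by 708 higher and 212 lower ACRs. Most were called against 1 end only. Of the 5520 higher ACRs, 1519 were also above each end tested alone, 2645 were above DS with no call against L57, 1028 above L57 with no call against DS, 48 above DS and below L57, 40 above L57 and below DS, and 240 called against neither. Of the 4850 lower ones, 1263 were below each end, 1892 below DS and 1399 below L57 with no call against the other end, 27 and 24 were on opposite sides of the ends, and 245 were called against neither. The contrasts with DS and with L57 share the germinating libraries, and called 21.4% of ACRs higher and 19.4% lower than DS, and 11.7% higher and 14.0% lower than L57.

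A stricter call required germinating seeds to exceed DS and L57 both, with the larger of both p-values carried forward. It left 814 ACRs above both ends, 2.69% of all, with a median log2 fold change of 1.04, and 505 below both ends, 1.67% of all, with a median of -0.76. The ACRs above both ends thus reached larger differences than those below: 453 of the 814 differed at least 2-fold from the mean of the ends, against 85 of the 505. In plain CPM, all 4 germinating libraries exceeded all 4 end libraries at 729 of the 814, and lay under them at 448 of the 505, where over all ACRs this held at 8.05% and 7.83%. The same libraries chose the 814 and the 505, so the lack of overlap follows largely from that choice and is no separate support. The counts of called ACRs depend on how spread is measured. Treating the libraries as 2 groups of 4, so that L6 against L26 and DS against L57 count as spread, left 626 higher and 281 lower ACRs. TMM factors moved the share of higher ACRs among those beyond both ends to 71.7%, size factors to 72.2% and total counts to 51.6%, beside 61.7%, and leaving out either L57 library left 305 or 278 ACRs above and 138 or 147 below both ends.

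**Figure D1:**
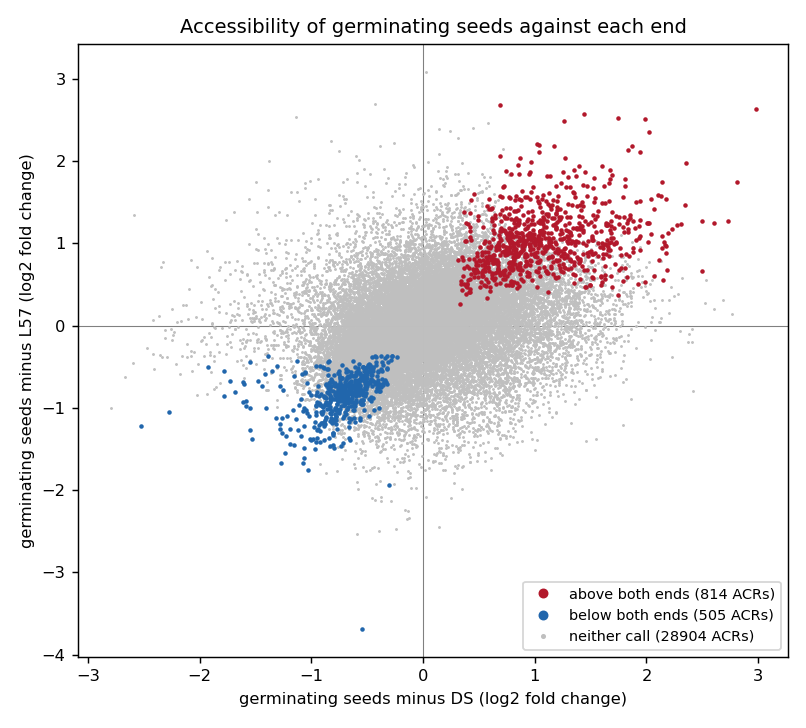
Log2 fold change of germinating seeds (mean of L6 and L26) minus DS on the x axis against germinating seeds minus L57 on the y axis, each point 1 of 30223 ACRs; both axes share the germinating libraries. The 814 ACRs above both ends (red) fill the upper right and the 505 below both ends (blue) the lower left, while the 28904 others (grey) spread along both axes.

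Among the ACRs named by size, the largest openings beyond both ends lay outside promoters. The largest was an intergenic ACR at chr2:16654222-16654971, 1012 bp upstream of the start of PROT1, a proline transporter gene. It had 88.7 and 75.1 CPM at L6 and 67.5 and 65.8 at L26, against 8.99 and 9.61 in DS and 9.55 and 13.7 in L57. Every germinating library was several times higher than every end library, and the log2 fold change was 2.81 ± 0.17 (SE; adjusted p for both ends = 6.6e-19). An ACR 3280 bp upstream of ZFP4, a C2H2 zinc finger gene, had 46.5 and 38.3 CPM at L6 and 34.7 and 36.8 at L26, against 5.28 and 5.74 in DS and 8.20 and 14.5 in L57 (log2 fold change 2.28 ± 0.20). A further ACR 2205 bp upstream of XYL1, whose alpha-xylosidase trims xyloglucan in the cell wall, had 30.1 and 28.7 CPM at L6 and 16.5 and 15.9 at L26, against 4.56 and 6.11 in DS and 5.12 and 3.43 in L57 (2.19 ± 0.26). At these 3 ACRs, as at all those named by size, the absence of overlap between germinating and end libraries was a condition of naming them. The ACR 2503 bp past the start of AT1G26762 had a log2 fold change of 2.25 ± 0.25 and, like that near XYL1, was higher at L6 than at L26. The nearest gene is given only to place a region; no link of these ACRs to its expression was measured.

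The 10 largest promoter differences above both ends, ranked among genes with a symbol only, included transcription factor genes as well as genes of enzymes and a channel. ABI4, an AP2-type transcription factor of the ABA response in seeds, had 77.8 and 64.0 CPM at L6 and 38.9 and 43.4 at L26, against 18.9 and 28.9 in DS and 14.9 and 9.36 in L57. The lowest germinating library stood above the highest end library, and the log2 fold change was 1.68 ± 0.17 (adjusted p for both ends = 6.7e-08). AIL5, a PLETHORA-family factor of embryo and meristem growth, had 128 and 115 CPM at L6 and 76.9 and 86.9 at L26, against 52.7 and 49.9 in DS and 27.8 and 22.8 in L57 (1.48 ± 0.12). GRF5, a growth-regulating factor that promotes cell proliferation in leaf primordia, had the strongest signal of these 10 promoters, with 279.5 and 292 CPM at L6 and 233 and 183 at L26, against 78.9 and 81.5 in DS and 96.4 and 79.0 in L57. Its difference, 1.54 ± 0.08, was nearly equal from either end, at 1.60 against DS and 1.49 against L57. HEC1, a bHLH factor of reproductive and meristem development, stood at 44.0-71.1 CPM in germinating seeds, against 15.4-15.5 in DS and 25.2-25.8 in L57 (1.57 ± 0.15).

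ABI5, the bZIP factor that carries ABA signals in seeds, showed this pattern at an internal ACR but not at its strongest promoter ACR. An ACR of 411 bp at chr2:15206631-15207041, 18 bp upstream of an annotated internal start and within an intron of a longer transcript, had 27.6 and 29.2 CPM at L6 and 12.1 and 9.42 at L26, against 5.35 and 7.13 in DS and 5.13 and 6.4 in L57. L6 stood far above all other stages there and L26 only slightly above the ends (log2 fold change 1.52 ± 0.26, adjusted p for both ends = 0.0015). The call for both ends was lost without either L57 library and without the stage L6. At the strongest promoter ACR of ABI5, with 136 and 149.8 CPM at L6 and 145 and 156 at L26, against 187 and 207 in DS and 107 and 109 in L57, germinating seeds lay between the ends, and the log2 fold change was 0.01 ± 0.08 (adjusted p = 0.96).

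CNGC12, a cyclic nucleotide-gated cation channel, had 78.4 and 95.8 CPM at L6 and 82.1 and 82.3 at L26, against 16.1 and 13.8 in DS and 42.4 and 29.0 in L57. It had the largest difference of the 10 promoters, 1.88 ± 0.13, and no difference between L26 and L6 was detected there (L26 minus L6 -0.09 ± 0.15, adjusted p = 0.76). LACS7, a peroxisomal long-chain acyl-CoA synthetase of oil breakdown, had 39.7 and 29.99 CPM at L6 and 17.8 and 25.6 at L26, against 9.01 and 12.7 in DS and 9.13 and 8.79 in L57 (1.48 ± 0.21). The serine carboxypeptidase-like gene scpl29 (1.61 ± 0.14), the cytochrome P450 gene CYP96A11 (1.63 ± 0.24) and RSW10 (1.54 ± 0.17), which encodes a ribose 5-phosphate isomerase needed for normal cellulose synthesis, completed the 10 largest. CYP96A11 was low in signal, at 14.0-23.8 CPM in germinating seeds, and its call for both ends was lost without either L57 library. The summit of the RSW10 promoter ACR lies in the 3′ UTR of the neighbouring gene AT1G71090, so that signal cannot be assigned to either gene alone. All 14 named ACRs that were higher kept both calls with offsets corrected for G+C content.

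**Figure D2:**
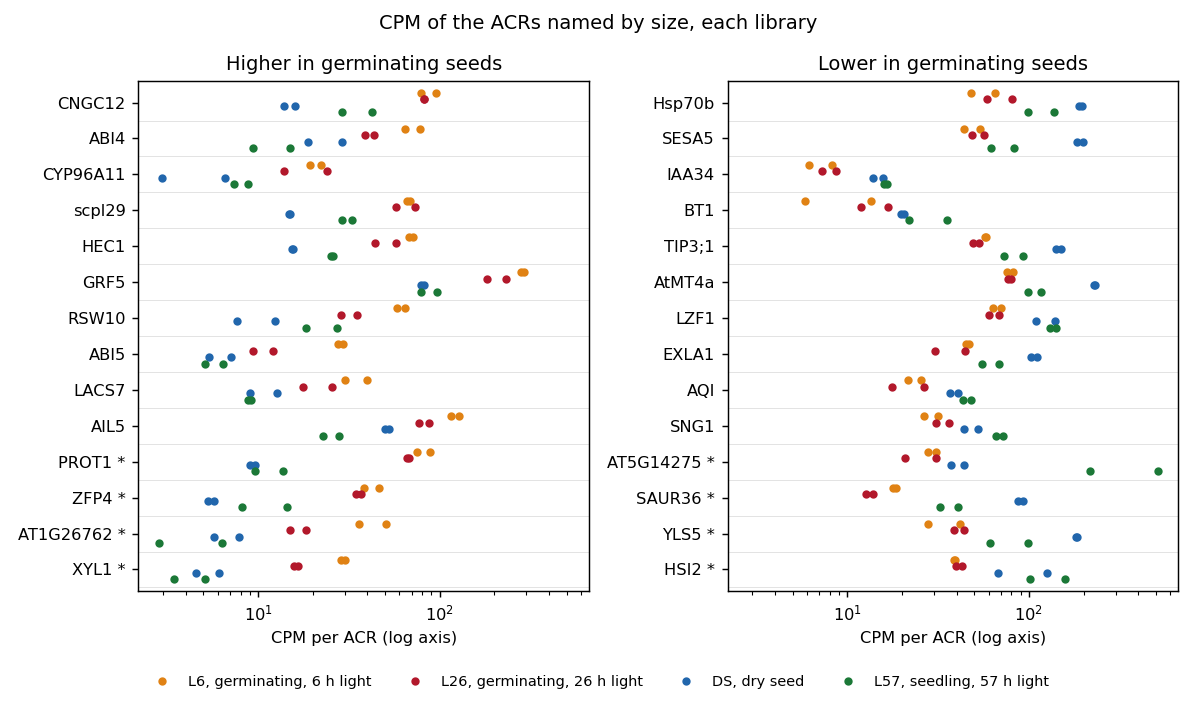
CPM of each library (log axis) at the 28 ACRs named by size, 14 higher (left panel) and 14 lower (right panel) in germinating seeds; an asterisk marks ACRs outside promoters, written by the gene with the nearest start. L6 and L26 points lie to the right of DS and L57 points in every row of the left panel and to the left of them in every row of the right panel, as the rule for naming them required.

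ACRs less open in germinating seeds than at both ends were wider and, with the study's offsets, more often in coding exons and introns. Coding exon ACRs were below both ends at 3.63% and intron ACRs at 3.08%, against 1.67% of all ACRs. With G+C-corrected offsets these shares were 0.88% and 2.07%, against 1.09% of all, so the excess in coding exons was not kept. At several of the named promoters the gap to L57 was small. LZF1, a B-box factor induced by light, had the smallest p for both ends of the 10 promoters, with 70.0 and 63.1 CPM at L6 and 60.4 and 68.6 at L26, against 109 and 138 in DS and 131 and 141 in L57. Germinating libraries stood at about the same level in both stages, below every end library (-0.99 ± 0.10; -0.92 against DS and -1.06 against L57; adjusted p for both ends = 3.6e-11). SNG1, which makes the sinapoylmalate sunscreen of leaves, had 31.7 and 26.4 CPM at L6 and 31.0 and 36.4 at L26, against 52.4 and 43.9 in DS and 71.9 and 65.8 in L57 (-0.87 ± 0.14). The chaperone gene Hsp70b had 65.1 and 47.8 CPM at L6 and 58.9 and 80.5 at L26, against 189 and 197 in DS and 98.6 and 137 in L57 (-1.27 ± 0.10). Its difference from DS, -1.62, was larger in size than that from L57, -0.92, and its call for both ends was lost without the second L57 library.

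For most other promoters the call for both ends was marginal, and of the 10 only LZF1 kept it in every alternative. SESA5, a seed storage albumin gene, had 43.9 and 53.4 CPM at L6 and 56.4 and 48.8 at L26, against 199 and 184 in DS and 83.0 and 61.8 in L57 (-1.21 ± 0.11). The 4 germinating libraries lay below both ends, but the adjusted p for both ends was 0.037 and the call was lost with TMM factors, with size factors and with total counts. TIP3;1, the aquaporin of protein storage vacuoles (adjusted p for both ends = 0.0056), AtMT4a, a metallothionein of seeds (0.021), and EXLA1, an expansin-like gene (0.035), lost it under the same 3 scalings, and TIP3;1 and AtMT4a also with G+C-corrected offsets, at 0.071 and 0.26. BT1, a BTB and TAZ domain scaffold gene, had 5.84-16.8 CPM in germinating seeds, against 19.7-20.5 in DS and 21.9-35.3 in L57, and its call (0.039) was lost in 11 of the alternatives, 6 of them single libraries left out. IAA34, an auxin-response repressor gene (-1.02 ± 0.24, 0.019), lost it in 9, and AQI (-0.90 ± 0.16, 0.0019), whose summit lies in a coding exon of a neighbouring gene, in 6 with the G+C correction among them.

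Outside promoters, the largest such dips lay downstream of SAUR36 and over coding exons. The ACR 1203 bp past the start of SAUR36, an auxin-induced gene linked to leaf senescence, had 18.6 and 17.9 CPM at L6 and 12.7 and 13.9 at L26, against 93.3 and 87.0 in DS and 40.8 and 32.4 in L57 (-1.87 ± 0.17). An ACR in a coding exon of HSI2, a B3-domain repressor of the seed maturation programme, had 38.6 and 39.2 CPM at L6 and 43.0 and 39.6 at L26, against 126 and 67.4 in DS and 158 and 102 in L57. The germinating libraries were closely alike there, whereas the libraries of each end differed widely among themselves (-1.47 ± 0.12). The ACR 508 bp upstream of YLS5 had 27.7-43.8 CPM in germinating seeds, against 181 and 185 in DS and 98.4 and 60.9 in L57 (-1.66 ± 0.12). The largest difference by fold, -2.12 ± 0.13, was at a coding exon ACR whose nearest start is that of AT5G14275. It rested on L57, with 31.0 and 27.98 CPM at L6 and 20.7 and 30.7 at L26, against 37.2 and 43.8 in DS and 513 and 217 in L57, so its replicates at L57 differed over 2-fold and its call for both ends (adjusted p = 0.044) was lost in 13 alternatives, the G+C correction among them.

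Lists of genes chosen for seed and seedling biology, with earlier results of these data known, were read at each gene's strongest promoter ACR. Over all 10320 protein-coding genes with such an ACR, 21.5% were higher and 8.39% lower in germinating seeds, with a median log2 fold change of 0.13, so promoters as a whole leaned upward, and list counts are to be set against these shares. With G+C-corrected offsets, 1622 of the 10320 were higher and 1084 lower, and corrected list counts are to be set against these. Regulators of embryo identity and maturation had the highest median with the study's offsets, though not with G+C-corrected ones. Of 10 genes, 6 were higher, none lower, and the median was 0.52, made up of 0.09 against DS and 1.27 against L57. LEC1, a master regulator of embryogenesis, had 39.1 and 35.9 CPM at L6 and 21.1 and 21.0 at L26, against 9.86 and 11.4 in DS and 12.6 and 9.81 in L57. It and AIL5 were the 2 of the 10 above both ends (LEC1 1.37 ± 0.21). AIL6, BBM, AIL7 and MYB118 were higher through L57 alone, BBM being lower than DS. AIL6 had 134 and 141 CPM at L6 and 45.5 and 54.1 at L26, against 80.1 and 85.2 in DS and 32.6 and 22.5 in L57, so L6 lay above DS and L26 below it. With G+C-corrected offsets 3 of the 10 were higher and 1 lower, and the median was 0.23, below that of the nitrate genes, 0.38.

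Of 14 fat mobilization and glyoxylate cycle genes, 7 were higher and none lower (median 0.28), and 3 lay above both ends: LACS7, the thiolase gene PKT3 (0.53 ± 0.09) and MFP2 (0.90 ± 0.18), which act in peroxisomal beta-oxidation. PKT3 had 120.4-137 CPM in germinating seeds, against 75.4 and 111 in DS and 81.1 and 81.8 in L57, and the groups did not overlap. The glyoxylate cycle gene ICL was not called (0.09). With G+C-corrected offsets 4 of the 14 were higher and none lower, and the median was 0.12, beside 0.09 over all 10320 genes. Of 13 gibberellin genes, 5 were higher and 1 lower (median 0.24). After G+C correction 4 were higher and 1 lower, and the median was 0.02, below that over all genes. The 2 above both ends with the study's offsets encode DELLA repressors of gibberellin response. RGA1 had 20.8 and 18.0 CPM at L6 and 7.27 and 9.32 at L26, against 3.67 and 3.6 in DS and 6.92 and 3.52 in L57 (1.56 ± 0.27). Its signal was low, L6 stood highest, and the lower L26 library was close to the higher L57 library. RGL3 had 121 CPM in both L6 libraries and 79.0 and 66.1 at L26, against 72.0 and 66.7 in DS and 36.1 and 29.3 in L57 (0.98 ± 0.12), so that L26 overlapped DS. The gibberellin synthesis gene GA20OX3 was higher (1.2 ± 0.25), but not above both ends, and the inactivation gene GA2OX6 was lower through DS (-1.01; -2.10 against DS and 0.08 against L57).

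Low-oxygen genes were higher at 7 of 11 promoters and lower at 1, ADH1 (median 0.35). The 2 above both ends were AT5G15120, a plant cysteine oxidase gene of oxygen sensing, and the ethylene-response factor ERF73. AT5G15120 had 23.2 and 22.4 CPM at L6 and 13.6 and 9.76 at L26, against 9.57 and 6.29 in DS and 4.00 and 2.98 in L57 (1.62 ± 0.27), and no germinating library fell within the range of the ends. After G+C correction 2 of the 11 low-oxygen genes were higher and 2 lower, where over all 10320 genes 1622 were higher and 1084 lower. Of 6 nitrate genes, 3 were higher and none lower (median 0.29). The transporter and sensor NRT1.1 had 30.04 and 33.1 CPM at L6 and 20.2 and 19.1 at L26, against 8.17 and 8.36 in DS and 10.8 and 14.6 in L57 (1.27 ± 0.21, above both ends), and the nitrate reductase gene NIA1 had a smaller difference of 0.49 ± 0.12.

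Of 12 cell wall and expansion genes 5 were higher and none lower (median 0.35; 0.51 against DS and 0.00 against L57). The alpha-expansin gene EXP3, whose product loosens walls, had 39.6 and 33.5 CPM at L6 and 22.5 and 18.7 at L26, against 12.9 and 11.4 in DS and 13.8 and 12.3 in L57, clear of both ends (1.12 ± 0.20), and the xyloglucan endotransglucosylase gene XTH19 was also above both (0.61 ± 0.12). XTH9, of the same family, had a nearly equal difference of 1.11 ± 0.08 that came from DS alone: 163-313 CPM in germinating seeds, against 42.3 and 43.8 in DS and 256 and 265 in L57. Light signaling and clock genes were higher at 11 of 32 promoters and lower at 2. SPT, a bHLH repressor of germination, had 45.5 and 48.5 CPM at L6 and 36.6 and 34.6 at L26, against 20.8 and 21.7 in DS and 21.8 and 12.3 in L57 (1.12 ± 0.17). PIF3, a phytochrome-interacting factor, was likewise above both ends (1.35 ± 0.13), whereas PIF7 (-0.81) and LZF1 were below both. The same list thus held the dips as well as the openings. G+C correction gave 8 higher and 5 lower of the 32, beside 1622 and 1084 of all 10320 genes.

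**Figure D3:**
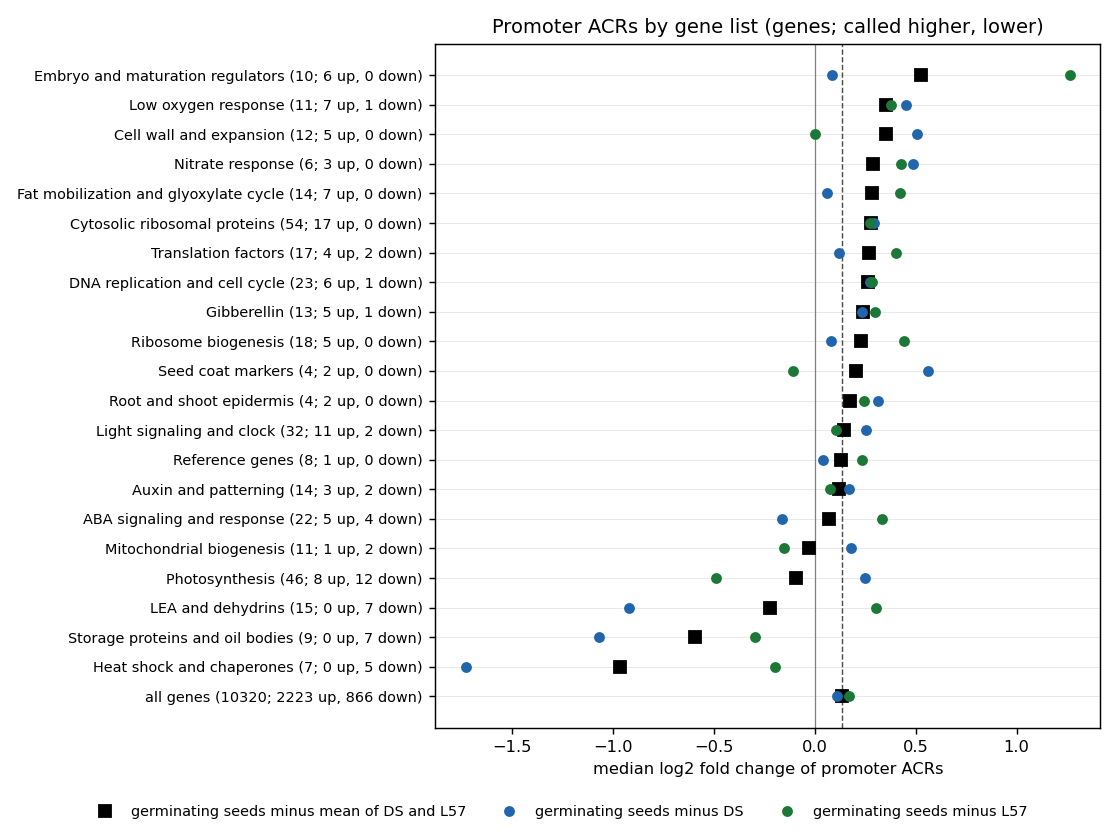
Median log2 fold change at promoter ACRs for each gene list, with germinating seeds set against the mean of the ends (black squares), DS (blue) and L57 (green); labels give genes with a promoter ACR and how many were called higher and lower. The dashed line marks the median over all 10320 genes, 0.13; heat shock, storage and LEA genes lie left of it through DS, and photosynthesis genes through L57.

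The lists of seed storage, LEA and dehydrin, and heat shock genes held lower genes and no higher ones, and more of their members were below DS than below L57. Of 7 heat shock genes 5 were lower and none higher (median -0.96; -1.73 against DS and -0.20 against L57). HSP70 had 24.7 and 25.3 CPM at L6 and 17.8 and 25.4 at L26, against 131 and 129 in DS and 27.8 and 28.7 in L57, so the germinating libraries lay just under L57 and far under DS. All 7 were below DS, while 1 was below L57, as were 829 of all 10320 genes, and 1 above it. Of 15 LEA and dehydrin genes, which protect drying cells, 7 were lower and none higher (median -0.22; -0.92 against DS and 0.30 against L57), and 8 were not called. Of the 15, 14 were below DS and 6 above L57, where over all 10320 genes 1348 were below DS and 1552 above L57. RAB18 had 75.6-82.6 CPM in germinating seeds, against 309.6 and 290.2 in DS and 93.4 and 77.2 in L57 (-1.0 ± 0.09), so that it lay far under DS and at the level of L57. Its difference from L57 was -0.09, and 0.10 when DS was left out of the offsets and the fit. Of 9 storage protein and oil body genes 7 were lower, none higher (median -0.59), and 2, SESA5 and TIP3;1, passed below both ends. The 6 storage markers summed above are members of this list, so their higher values in DS are no separate observation. The part of tissue makeup in this was not tested. Photosynthesis genes leaned opposite ways from the ends: 8 of 46 were higher and 12 lower, with medians of 0.25 against DS and -0.49 against L57, and 24 of the 46 were below L57 (829 of all 10320 genes). PSAD-2, a photosystem I subunit gene, was 1 of 2 below both ends (-0.85 ± 0.12), a call lost with the G+C correction.

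Of the protein synthesis lists, translation factors and ribosome biogenesis genes were close to the shares over all promoter genes (21.5% higher and 8.39% lower). Of 54 cytosolic ribosomal protein genes 17 were higher and none lower (median 0.28; 0.29 against DS and 0.28 against L57), 10 of the 54 had all germinating libraries above the ends, against 1048 of all 10320 genes, and 2 passed both ends, AT3G56340 (S26e family, 0.87 ± 0.16) and AT5G28060 (S24e family, 0.87 ± 0.21). AT3G56340 had 60.4 and 49.7 CPM at L6 and 40.8 and 32.6 at L26, against 31.1 and 30.6 in DS and 24.1 and 15.5 in L57, so L6 stood highest and L26 just above DS. Ribosome biogenesis genes were higher at 5 of 18, none lower and none above both ends, and NUC-L1, a nucleolin gene, had 136 and 141 CPM at L6 and 87.1 and 90.8 at L26, against 101 and 94.2 in DS and 85.8 and 75.7 in L57 (0.33 ± 0.10). Translation factors were higher at 4 and lower at 2 of 17, and DNA replication and cell cycle genes higher at 6 and lower at 1 of 23, where RNR1, the large subunit of ribonucleotide reductase, passed both ends (0.89 ± 0.19). Most ABA genes (5 higher, 4 lower and 13 not called), auxin genes (3, 2 and 9) and mitochondrial genes (1, 2 and 8) did not pass the test. The shares of ABA and auxin genes that were higher, 22.7% and 21.4%, were near that over all promoter genes. Lower genes were a larger share of each list, at 4 of 22, 2 of 14 and 2 of 11, beside 866 of all 10320. After G+C correction, 2 ABA genes were higher and 5 lower, beside 1622 and 1084 of all 10320. Corrected counts were 0 and 2 for auxin genes and 1 and 1 for mitochondrial genes. These lists are small, and the difference in shares was not tested. Of 8 reference genes 1, GAPC1, was higher (0.30 ± 0.11). Epidermis genes were higher at 2 of 4, and so were seed coat markers.

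The openings above both ends were strongest early in germination. Between the germinating stages, 8.71% of all ACRs were higher and 7.91% lower at L26 than at L6, but of the 814 ACRs above both ends 44 (5.41%) were higher and 225 (27.6%) lower at L26. Their median log2 fold change from the ends was 1.14 for L6 alone and 0.91 for L26 alone. Both stages enter the rule that chose these 814, and L6 and L26 share the end libraries, so these are descriptions. The 505 ACRs below both ends were more even, with 41 higher and 16 lower at L26 and medians of -0.79 for L6 and -0.74 for L26. ABI5 (-1.41 ± 0.28, adjusted p = 3e-05), RSW10, LEC1 (-0.83 ± 0.23), ABI4 and AIL5 were lower at L26 than at L6. Of the 10 embryo and maturation genes, 6 were lower at L26 and none higher. AIL7 (-2.12), of the same family as AIL5, AIL6 (-1.46, adjusted p = 1.2e-16) and AT2G43500 (-1.87), the gene of the nitrate-sensing regulator NLP8, were lower at L26 by still more. AT2G43500 had 97.0 and 105 CPM at L6 and 19.7 and 34.3 at L26, against 77.5 and 78.7 in DS and 30.9 and 31.7 in L57, and no difference from the ends was detected over both stages (0.09 ± 0.14, adjusted p = 0.62). Photosynthesis genes were higher at L26 at 16 of 46 promoters and lower at 4, where over all 10320 genes 620 were higher and 938 lower. Other named genes higher at L26 were XTH9 (0.75), HYH (0.93), a light-response bZIP gene, SUS4 (1.09), a sucrose synthase gene, and GL2 (0.86).

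**Figure D4:**
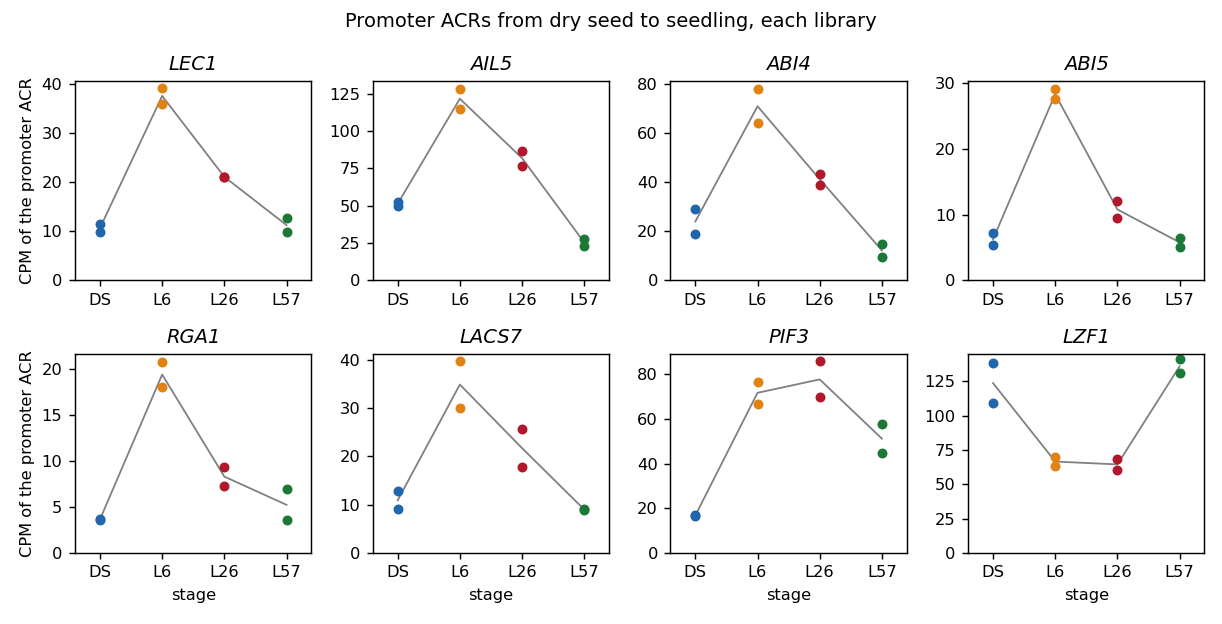
CPM of the promoter ACR in each library of DS, L6, L26 and L57 for 8 genes, selected after their values were seen to show the kinds of course; the grey line joins stage means. LEC1, AIL5, ABI4, ABI5 (internal start), RGA1 and LACS7 peak at L6, PIF3 is about level between L6 and L26, and LZF1 is lowest in both germinating stages.

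Where in the genome an ACR lay, and its base composition, went with the direction. Intergenic ACRs were higher in germinating seeds at 33.9% and lower at 9.38% (median 0.23, 6835 ACRs), and promoters at 22.9% and 8.48% (0.15, 9244 ACRs). Coding exon ACRs ran the other way, with 3.6% higher and 28.4% lower (-0.27, 7939 ACRs), as did introns with 10.8% and 28.1% and pseudogenes with 1.89% and 19.9%. G+C content moved with the same split: with ACRs in 5 equal bins, 39.1% of the bin poorest in G+C were higher and 8.72% lower, against 2.75% and 22.4% of the richest bin, and the median G+C was 33.8% for the 814 ACRs above both ends, 42.8% for the 505 below them and 39.1% for all. With offsets corrected for G+C content, the intergenic shares became 16.5% higher and 17.1% lower (median 0.03), so that their upward lean was no longer seen. Over all ACRs the corrected shares were 12.4% higher and 14.4% lower. Coding exons, with 6.42% higher and 14.8% lower, still had fewer higher calls, but their lower share was near that of all ACRs. Introns kept their lean nearly whole, with 7.16% and 26.9% (-0.23). Promoters stayed higher on balance, with 16.0% and 11%. That correction left 398 ACRs above and 328 below both ends, of which 324 and 179 were in the uncorrected sets of 814 and 505. It removes any biological difference that runs with base composition together with a technical one, and these were not separated.

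**Figure D5:**
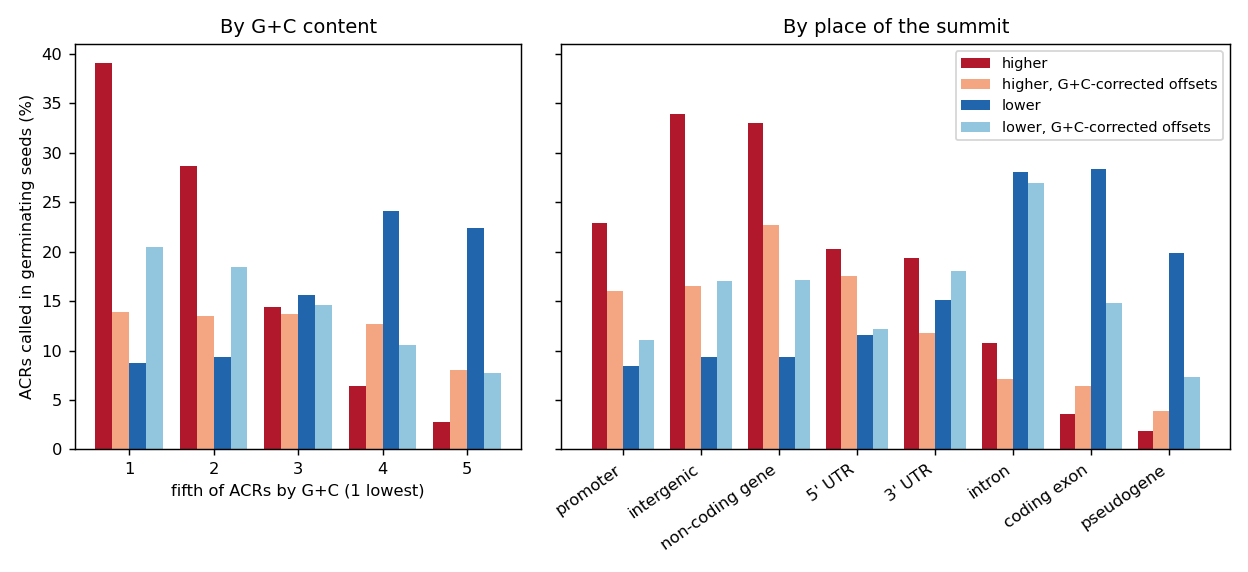
Percent of ACRs called higher (reds) and lower (blues) in germinating seeds, with the study's trended offsets (dark) and with G+C-corrected offsets (pale), by 5 equal bins of G+C content (left) and by the place of the summit (right). The excess of higher calls in G+C-poor and intergenic ACRs is not seen with corrected offsets, while introns keep more lower than higher calls.

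Width went with the direction as well and was kept under that correction. Of the widest of 5 equal bins, from 811 to 3474 bp, 13.0% were higher and 32.3% lower, and 10.0% and 27.5% with corrected offsets. The median width was 525 bp for ACRs above both ends, 944 bp for those below them and 522 bp for all. The median log2 fold change was -0.14 in the widest and 0.14 in the narrowest bin. Pericentromeric ACRs were higher at 8.37% and lower at 16.3%, against 19.3% and 16.0% on the arms, and had a median near 0 after correction (-0.04).

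Known promoter elements were counted within 100 bp of summits on both strands, each beside its letters in reversed order, which have the same composition. Site II elements (TGGGCC or TGGGCT) were in 26.9% of all ACRs, 32.1% of the higher and 16.3% of the lower ones, while the reversed letters were in 8.75%, 6.92% and 8.08%. Telo-boxes (AAACCCTA) were in 3.10% of all, 3.88% of higher and 1.2% of lower ACRs, and G-boxes (CACGTG) in 10.8%, 14.1% and 7.86%. Since 40.0% of promoter ACRs held Site II, and promoters were more often higher, these shares are not independent of position. The ACRs above both ends had fewer Site II elements (22.9%) and more RY elements (CATGCA, 14.0% against 9.58% of all ACRs and 9.11% of those below both ends). The reversed RY letters were in 4.67% of the ACRs above both ends and 5.03% of all. In the contrast with the mean of the ends, RY was in 11.1% of higher and 10.8% of lower ACRs, so no direction showed there. RY was in 6.56% of promoter ACRs, and 52.9% of the ACRs above both ends were intergenic, so its share is not independent of position either. The GAGAGAGA repeat was in 10.7% of higher and 4.39% of lower ACRs against 7.19% of all, but its reversed letters gave 10.4%, 4.16% and 7.20%, as repeats of this kind contain their own reversal. TATA elements (TATAAATA) were in 2.83% of all ACRs and their reversal in 2.76%, and W-boxes in 22.96% and 15.9%. No test was run on these shares.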

How the data were processed

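ATAC-seq libraries of DS, L6, L26 and L57 were analysed, with 2 libraries each. The deposited counts are raw reads per ACR, which the authors made by trimming with fastp (0.23.4), mapping to TAIR10 with Bowtie2 (2.4.4), removal of organellar, blacklisted and poorly mapped reads with SAMtools (1.14), removal of duplicates with Genrich (0.6.1), peak calling per library with MACS3 (3.0.0b3), and merging of peaks found in both replicates and counting with bedtools (2.30.0). Versions are from the submitters' processing notes, which also name R (4.3.1). The deposited CPM values were made by the authors with trended csaw offsets, which remove intensity-dependent trends between libraries and with them any global change. Peaks were kept where both replicates of a stage had one, and a region open at more stages had more chances to enter.

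Counts were fitted with edgeR (4.0.16) in R (4.3.3), with 1 coefficient per stage, the quasi-likelihood test and loess offsets of span 0.3, which equalled the deposited ones within 1.91e-12. The contrast was the mean of L6 and L26 minus that of DS and L57, with Benjamini-Hochberg adjustment over all 30223 ACRs. For a call beyond both ends the larger p against DS and against L57 was adjusted, set to 1 where signs differed. SE is the size of the fold change over the root of F. The biological coefficient of variation was 9.73%, and with counts of 1534759 to 3734831 per library a low ACR is less precise than a high one. No filter was needed, as 2 ACR counts in all were 0. The tests were also run on simulated counts with a single dispersion and changes at chosen ACRs only. No G+C trend or further stage difference was built in, so that run is no check on these, and its outcome is not reported here. ACRs were placed on TAIR10 gene models (RefSeq). A promoter ran from 400 bp before to 100 bp after a start, and a gene's strongest promoter ACR stood for it.

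ACRs named by size passed both calls, had at least 10 CPM on average and no overlap between germinating and end libraries. The 10 largest per direction at promoters of genes with a symbol, the 4 largest per direction outside them and up to 4 genes per list by p were taken, and other list members with values were chosen after those were seen. The 22 lists hold 573 genes, with 9 more symbols dropped for want of a match. Cytosolic ribosomal proteins were matched by product only, since symbols also matched disease resistance and organellar genes. Products described with words such as superfamily or kinase were left out, so this list may miss part of the family. Members and lists were chosen with earlier results of these data known. Alternatives were other scalings, G+C-corrected offsets, filters, thinning to equal depth, limma (3.58.1) on log2(CPM + 1), DESeq2 (1.42.0), a replicate block, and each library or stage left out. A gene that the rule names and a sequence are not reported here. Upstream Tn5 offset settings beyond the peak caller's are not given in the sources used here.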

Additional observations from a re-analysis of the deposited data

Results flagged for a closer look

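At 9 of the 14 named ACRs that were higher in germinating seeds, the difference from the ends was itself unequal between the germinating stages, by the test of L26 minus L6 within the same fit (edgeR quasi-likelihood test, adjusted over all ACRs). All 9 were lower at L26. Over all ACRs 7.91% were lower and 8.71% higher at L26, and of the 814 ACRs above both ends 27.6% were lower. L6 enters the contrast by which the 14 were chosen, so a high L6 value helped them to be named. The log2 differences were -0.77 at ABI4, -0.46 at HEC1, -0.46 at GRF5, -0.93 at RSW10, -1.41 at the internal ABI5 start, -0.65 at LACS7 and -0.57 at AIL5. Outside promoters they were -1.37 near AT1G26762 and -0.86 near XYL1. At HEC1 and LACS7 the adjusted p-values, 0.044 and 0.042, were close to the threshold. Of the 14 named ACRs that were lower in germinating seeds, none passed this test, which does not show that the stages were alike there.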

How the results depend on the processing

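The directions of the named ACRs held in all alternatives but those that left out a whole stage. Without DS the log2 fold change turned at RAB18 (0.10), M10 (0.30), LEA (0.42), OLEO1 (0.15), CRA1 (0.43), PHB3 (0.28), ETR2 (-0.0584) and XTH9 (-0.24). Without L57 it turned at SHY2 (0.18), BBM (-0.43) and AT2G43500 (-0.55), and without L6 at AT2G43500 (-0.82). Counts moved more. ACRs above both ends numbered 398 with G+C-corrected offsets, 386 with these and the replicate block, 505 by DESeq2, 530 without L6, 1590 without L26 and 417 at adjusted p below 0.01. Those below both numbered 328, 321, 51, 197, 756 and 179 in the same order, 244 after thinning and 272 by limma. For the mean of the ends, higher ACRs numbered 3167 above the median CPM, 3673 with G+C correction and block, 626 as 2 groups of 4, 3366 without DS and 3631 at the stricter threshold, and lower ACRs 2946, 281 as 2 groups of 4, 2906 without L6, 2336 by DESeq2 and 2799 at the stricter threshold. For L26 minus L6, higher ACRs numbered 1723 above the median CPM, 1670 after thinning, 1082 by DESeq2 and 1538 at the stricter threshold, and lower ACRs 1527 after thinning and 1349 at the stricter threshold. The causes were not tested, apart from the fewer libraries or ACRs that some alternatives hold by construction.

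Leaving out 1 library gave 4194 to 4984 higher and 3363 to 4214 lower ACRs, 278 to 770 above and 138 to 481 below both ends, and 1547 to 2614 higher and 1153 to 2283 lower at L26 than L6. Above both ends, 474 and 493 were left without DS replicate 1 or 2 and 305 and 278 without L57 replicate 1 or 2. Below both ends, 326 and 325 were left without L6 replicate 1 or 2, 206 and 280 without DS replicate 1 or 2, and 138 and 147 without L57 replicate 1 or 2. For L26 minus L6, 1609, 1614 and 1547 were higher without L6 replicate 1, L6 replicate 2 or L26 replicate 2, and 1590 and 1153 lower without L6 replicate 2 or L26 replicate 2. Replicate numbers did not pair the libraries (correlations of deviations between stages of -0.041 to 0.023), and the replicate block gave 5415 higher, 4738 lower, 773 above and 472 below both ends. Leaving out a library of L57, the shallowest stage, lowered both counts beyond the ends most.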
